A study of Mus musculus with 2 samples.

Results

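The Kelch-like (Klhl) and Kbtbd genes of mouse skeletal muscle were compared between mice overexpressing RXRγ and control mice. They were taken by name alone, as every probe set that the platform annotation gives a single gene symbol starting with Klhl or Kbtbd. A probe set combines the readings of several short oligonucleotides designed for a gene's transcripts. The rule found 42 genes on 75 probe sets, among 18194 genes on 34958 probe sets with a single symbol. Of the 42 genes, 19 had 1 probe set and none had more than 5. RefSeq (GRCm38.p6) holds 46 protein-coding genes with such names, and the other 4 of these (Klhl3, Klhl31, Klhl34 and Klhl38) were not analysed here.

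The arrays were Affymetrix MG430, hybridized in 1 colour with biotin-labelled RNA, and there were 2 samples. The control mice were non-transgenic C57BL6 females of 4 months of age. The RXRγ mice were C57BL6 females of the same age, line 4-3, carrying an RXRγ transgene that the human α-actin promoter expresses in skeletal muscle. RXRγ belongs to the nuclear receptors and pairs on DNA with others of that class, such as PPARs and LXRs. The RNA of each genotype was mixed into 1 pool, which went on 1 array. The series design gives 5 animals per pool and the extraction protocol gives 3. A single transgenic line was used, so an effect of the transgene and one of its insertion site cannot be told apart. Since each genotype had 1 array, no value has an error and no difference could be tested, so the small number of arrays limits how precise each value is.

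Proteins of this family join a BTB domain to a set of kelch repeats. The BTB domain binds the scaffold cullin 3, and the kelch repeats hold the protein to be marked, so each family member works as an adaptor that brings its own substrates to a ubiquitin ligase. The ligase is switched on when the ubiquitin-like protein NEDD8 is joined to the cullin and switched off when the COP9 signalosome removes it. In skeletal muscle several members serve the sarcomere: KLHL40 and KLHL41 protect the thin filament proteins nebulin and leiomodin-3. Variants of the genes of KLHL40, KLHL41 or KBTBD13 are a cause of nemaline myopathy in people.

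The signals are the authors' values in array units on a linear scale. Their mean, computed here with 2% of the probe sets trimmed at each end, was 100.0 on both arrays. The Rxrg transcript was 27.4-fold higher in RXRγ mice (9172.1 against 334.5). All 10 fibre markers listed, among them Acta1, Ckm and Myh4, were above 250 on the brighter array, while none of the 5 heart muscle markers and none of the 4 B lymphocyte markers on the array exceeded 29.9. Of the other cell types listed, none of 5 endothelial markers reached 250, and 5 of 5 fibroblast, 2 of 5 macrophage, 2 of 4 adipocyte and 2 of 3 Schwann cell markers did. Among these, the fibroblast gene Lum was higher (1770.8 against 699.1 in control mice) and the others lay within 0.4 on the log2 scale. All 6 slow fibre markers were lower in RXRγ mice.

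Most of the family was dim in muscle, as were most named genes on the array. A signal of 150 was taken as the level under which a fold is too uncertain to give, after the study's criterion for a substantial level. Of the 42 genes, 16 had a probe set above 150 on at least 1 array, on 21 probe sets, and 26 did not. Among all 18194 named genes, 5359 had such a probe set. In control mice all 16 genes and all 21 probe sets were above 150. In RXRγ mice 12 genes and 15 probe sets were. The 4 genes above 150 in control mice alone were Kbtbd4, Kbtbd13, Klhl8 and Klhl28, and no member was above 150 in RXRγ mice alone. Among all named genes above 150 on either array, 7.54% were so in control mice alone and 9.12% in RXRγ mice alone. With a single array per genotype these shares were not tested against each other.

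**Figure D1:**
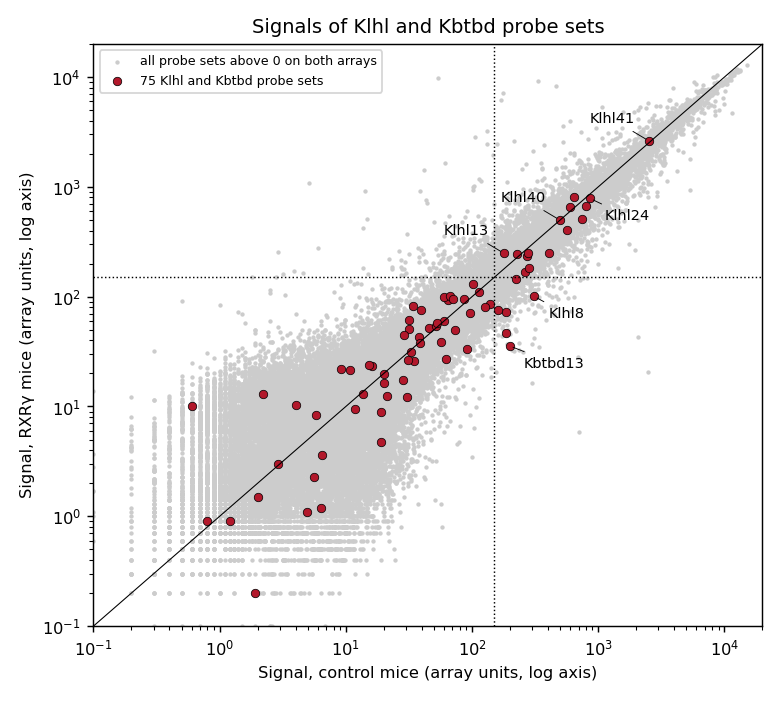
Signal of each Klhl and Kbtbd probe set (red, 75) in RXRγ mice against control mice over all probe sets above 0 on both arrays (grey), 1 point per probe set, both axes logarithmic in array units. The solid line marks equal signals and the dotted lines 150; 15 red points lie above the horizontal dotted line and 21 lie to the right of the vertical one.

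For the comparison of the genotypes, a gene was taken as measured where a probe set was above 250 on the brighter array, and its value is the mean log2 ratio of RXRγ over control mice over those probe sets. It was called higher or lower where this value was at least 0.4 in either direction. The limits of 250 and 0.4 were taken from the study. It also required the array software to call a transcript present, and it used 0.4 to list increased genes. No such detection call was used here, and 0.4 was applied in both directions. On this footing 11 of the 42 genes were measured, on 14 probe sets. That is 26.2% of the family, against 20.8% of all named genes. In RXRγ mice 5 of the 11 were lower (Klhl8, Klhl21, Klhl12, Klhl30 and Klhl24), none was higher, and 6 lay between (Klhl9, Kbtbd2, Klhl22, Klhl40, Klhl41 and Klhl7). Over all 3780 measured genes 20.1% were lower and 16.8% were higher. The share of the family that was lower was 45.5%, which rests on 5 genes. Klhl8, Klhl12 and Kbtbd2 passed the limit of 250 through the control array alone. The same held for a Klhl24 probe set (182.4 in RXRγ mice against 282.8), and without it the log2 ratio of Klhl24 was -0.31. With 250 exceeded on both arrays 8 members remained, of which 2 (Klhl21 and Klhl30) were lower, against 16.4% of all 3055 such genes. The median log2 ratio of the 11 genes was -0.26, and over all measured genes it was -0.04. Of the 11 genes 8 had a ratio below 0, as did 53.5% of all measured genes. The 10 fibre markers had a median of -0.25, with 3 of them lower. The 6 slow fibre markers, all lower, summed to a signal of 6729 in control mice against 1552 in RXRγ mice. Of these, Myl3 was under 150 in RXRγ mice (23.2 against 1746.6 in control mice, averaged over 3 probe sets). The part of either marker list in the values of the family was not tested. In RNA of whole muscle, fewer fibres of a type and less RNA per fibre cannot be told apart.

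**Figure D2:**
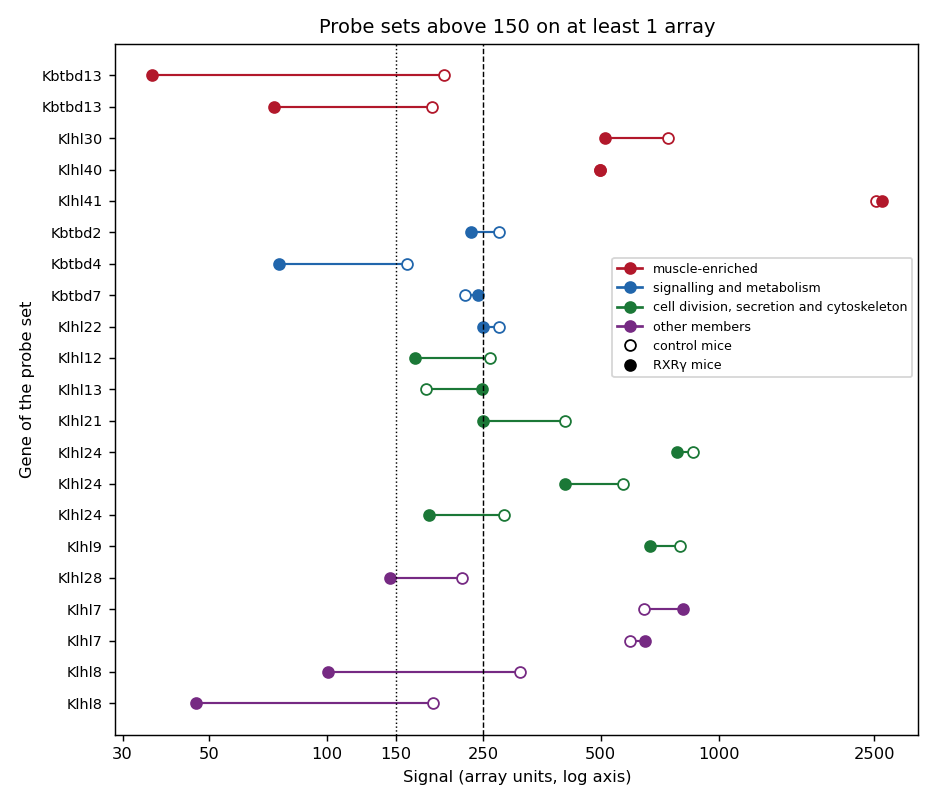
Signals of control mice as open and of RXRγ mice as filled circles for the 21 probe sets above 150 on at least 1 array, on a logarithmic axis in array units, coloured by the role of the gene; dotted and dashed lines mark 150 and 250. The filled circle lies to the left of the open one for 15 of the 21 probe sets, and the circles of Klhl40 coincide.

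The muscle-enriched members split. Klhl41, which in muscle fibres helps to assemble myofibrils and protects nebulin, read 2527.6 in control mice and 2615.2 in RXRγ mice. Klhl40, which stabilises nebulin and leiomodin-3, had 497.3 and 497.7. The log2 ratios of Klhl41 and Klhl40 were 0.05 and 0.00. They lay in the middle of the measured genes, with 58.3% and 53.6% of all genes below them. Klhl30, a muscle-enriched member of little known function, was lower, at 513.6 in RXRγ mice against 742.8 in control mice, a 1.45-fold difference.

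Kbtbd13, an actin-binding nemaline myopathy protein, did not reach 250. Both of its probe sets were above 150 in control mice and under it in RXRγ mice. Their signals were 198.5 against 35.6 in RXRγ mice and 185.7 against 73.2. Because the dimmer array was too low for a fold, these are differences of at least 1.32-fold and at least 1.24-fold. The name of the second probe set ends in _x_at, which marks oligonucleotides that may also bind other transcripts. The other 2 muscle-enriched genes, Kbtbd12 and Klhl33, had signals from 4.7 to 61.7 on 3 probe sets.

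Of the partners of these muscle members, the giant thin filament protein gene Neb had 6932.4 in control mice and 7149.6 in RXRγ mice. For Lmod3, which nucleates thin filaments, the signals were 952.6 and 929.3, and for Nrap, a scaffold of growing myofibrils, 4275.4 and 3980.6. All 3 stayed within 0.4 on the log2 scale. Of the 11 measured nemaline myopathy genes, Klhl40 and Klhl41 included, 4 were lower (20.1% of all measured genes) and none was higher (16.8%). Their median log2 ratio was -0.16. The 4 were the slow troponin gene Tnnt1 (188.9 against 767.6 in control mice), the tropomyosin genes Tpm2 (log2 ratio -0.88) and Tpm3 (-0.70), and Mypn (-0.49), which encodes a Z-disc protein. One of the 3 probe sets of Tpm3 had a log2 ratio of 0.06.

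The start regions of Klhl41, Klhl40 and Klhl21 are shown because they hold the letters of motifs known from muscle genes, in 2 members whose signals lay within 0.4 on the log2 scale and 1 that was lower. They are 300 bases long, from 250 before to 50 after the start, from RefSeq (GRCm38.p6), written 5′ to 3′ on the strand of the gene. Capitals mark CAGCTG, a form of the E-box that myogenic factors bind, and in Klhl41 also the MEF2 motif.

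Klhl41, chr2:69669870-69670169, plus strand:
Klhl41: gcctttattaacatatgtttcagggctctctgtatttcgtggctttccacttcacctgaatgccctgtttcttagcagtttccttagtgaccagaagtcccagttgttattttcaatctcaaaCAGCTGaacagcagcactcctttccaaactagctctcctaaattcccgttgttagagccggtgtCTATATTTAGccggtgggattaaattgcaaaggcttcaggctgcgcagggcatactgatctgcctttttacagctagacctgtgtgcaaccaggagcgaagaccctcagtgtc
Klhl40, chr9:121777357-121777656, plus strand:
Klhl40: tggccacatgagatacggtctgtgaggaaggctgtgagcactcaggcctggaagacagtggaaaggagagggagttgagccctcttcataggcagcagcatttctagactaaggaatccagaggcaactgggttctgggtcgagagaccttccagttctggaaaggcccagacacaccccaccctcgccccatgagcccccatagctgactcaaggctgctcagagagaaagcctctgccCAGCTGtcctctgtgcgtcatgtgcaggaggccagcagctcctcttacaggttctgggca
Klhl21, chr4:152008641-152008940, plus strand:
Klhl21: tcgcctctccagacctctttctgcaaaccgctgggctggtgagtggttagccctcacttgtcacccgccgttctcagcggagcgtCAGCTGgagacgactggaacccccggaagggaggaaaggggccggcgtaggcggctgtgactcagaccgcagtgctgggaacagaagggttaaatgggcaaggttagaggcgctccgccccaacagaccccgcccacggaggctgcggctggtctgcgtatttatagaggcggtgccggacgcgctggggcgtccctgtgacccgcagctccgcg

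Counting the start as 0, CAGCTG begins at -127 in Klhl41, -10 in Klhl40 and -165 in Klhl21, and the MEF2 motif at -63 in Klhl41. Of the 11 measured members 8 had windows in the RefSeq table, 9 windows in all. Klhl8, Klhl24 and Klhl30 had none, so of the lower genes only Klhl12 and Klhl21 could be searched. Of the 9 windows 3 held CAGCTG and 1 the MEF2 motif, on either strand. Over all 21262 windows of protein-coding genes the shares were 15.6% and 2.74%. The AGGTCA half-site, which RXR and its partners bind, was in none of the 9 windows and in 14.7% of all coding windows, and a direct repeat of that half-site with 1 base between was in none of the 9 and in 0.047%. Among the members that were not measured, the half-site was found in windows of Klhl23, Klhl33, Klhl6, Klhl13 and Klhl4. CAGCTG was also found in windows of unmeasured members, namely Klhl5, Klhl35, Klhl10, Klhl6, Klhl13 and Klhl4. Of these, Klhl35, Klhl10, Klhl6 and Klhl4 are best known from other tissues, so CAGCTG was not confined to measured or muscle-enriched members. The MEF2 motif was also in windows of the unmeasured muscle-enriched genes Kbtbd12 and Klhl33. A match of letters is not a binding site, and its absence says only that these letters are not in this window. The windows of Klhl40 and Klhl41 held 4 and 6 CpG pairs, while those of the other 6 measured members with a window held 17 to 37 and the median coding window 13.

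Among the members tied to cell division, secretion and the cytoskeleton, 3 of 4 measured genes were lower (20.1% of all measured genes). The call of 1 of the 3, Klhl24, was lost under several alternatives given further on, and Klhl12 passed 250 through the control array alone. With 250 exceeded on both arrays only Klhl21 of the 3 stayed lower (16.4% of all such genes). Klhl21, which directs Aurora B during cell division, had a signal of 250.2 in RXRγ mice against 405.0 in control mice, a 1.62-fold difference. Its other probe set was under 150 on both arrays (12.2 and 30.6). Klhl12, which ubiquitylates the COPII coat protein SEC31 and so enlarges the carriers that export collagen, had 167.8 against 261.1 in control mice, 1.56-fold lower. Sec31a itself did not reach 250 (221.9 in RXRγ mice and 182.5 in control mice), and the same held for Pef1, a calcium-binding co-adaptor of KLHL12 (201.7 and 161.0).

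Klhl24, whose product controls the turnover of intermediate filament proteins, had 3 probe sets above 250. They read 784.1 against 860.8 in control mice, 404.8 against 570.0, and 182.4 against 282.8. The log2 ratios ran from -0.63 to -0.13, a span of 0.50, while the median span over the 1213 measured genes with several probe sets was 0.20. The mean of -0.42 was just beyond the threshold, and 1 of the 3 probe sets did not pass it. Its other probe sets were under 150, at 85.7 against 138.1 and 71.5 against 95.5.

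Klhl9, which acts with KLHL13 on Aurora B, had 667.1 in RXRγ mice and 797.1 in control mice (log2 ratio -0.26). Klhl13 did not reach 250, with 248.8 in RXRγ mice against 178.5 in control mice at one probe set and 100.2 against 59.7 at the other. The brighter probe set had a log2 ratio of 0.48, and this was the single member above 150 to lie beyond 0.4 in the upward direction. Aurkb, the kinase both act on, did not exceed 17.9. Klhl18, Klhl42 and Kbtbd8 had signals from 17.3 to 72.8.

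The largest difference among the measured members was that of Klhl8, an adaptor tied to the turnover of rapsyn, which gathers acetylcholine receptors at the nerve endings of muscle. It had a signal of 100.6 in RXRγ mice against 310.2 in control mice, at least 2.07-fold lower. A second probe set had 46.3 against 186.0, at least 1.24-fold lower, so both were lower. Klhl7, mutated in a form of retinitis pigmentosa, had 2 probe sets, at 648.9 against 592.3 in control mice and 813.5 against 644.6. Its log2 ratio of 0.23 was the highest of the 11 and under the threshold. The name of the brighter probe set ends in _s_at, for oligonucleotides shared by several transcripts, and without it the log2 ratio was 0.13. Klhl28, of little known function, had 144.8 in RXRγ mice against 221.6 in control mice, at least 1.48-fold lower, and its 3 other probe sets were under 150 on both arrays.

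Of the 9 members with roles in signalling and metabolism 2 were measured, Kbtbd2 and Klhl22, and both lay within 0.4 on the log2 scale. Kbtbd2, which removes excess p85α and thereby keeps insulin signalling intact, had 233.4 in RXRγ mice and 274.9 in control mice (log2 ratio -0.24). Its target Pik3r1, the gene of p85α, had 267.2 and 308.4. Klhl22, which marks an inhibitor of mTORC1 signalling, had 250.5 and 275.1 (log2 ratio -0.14), and a second probe set named for it was at 0.9 and 0.8. Kbtbd7, which acts with KBTBD6 on the Rac activator TIAM1, had 243.4 and 225.5 at a probe set whose name ends in _s_at, which marks oligonucleotides shared by several transcripts, and its other probe sets were under 150. Kbtbd4 had 75.4 in RXRγ mice against 159.7 in control mice, at least 1.06-fold lower.

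The adaptor Klhl25 had at most 56.7 on its 2 probe sets, and both of its reported substrates were higher in RXRγ mice. Acly, which makes acetyl-CoA for lipid synthesis, had 738.3 against 358.9 in control mice, and Eif4ebp1, a repressor of translation, had 1044.5 against 404.7. Klhl20, Klhl2, Klhl15 and Kbtbd6 had signals from 1.1 to 114.2. Of the 25 reported partners and substrates of the family 11 were measured. Of these 3 were higher (16.8% of all measured genes), none was lower (20.1%), and the median log2 ratio was 0.16. The third was Flnc, a Z-disc protein (log2 ratio 0.42). Pdcd6, on the same list, had 372.1 in RXRγ mice and 303.1 in control mice (log2 ratio 0.30).

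**Figure D3:**
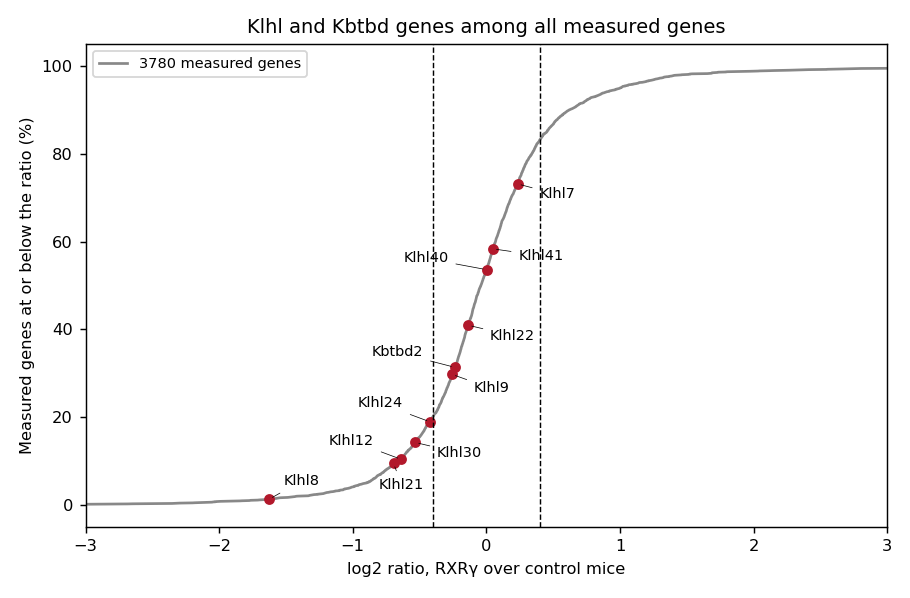
Share of the 3780 measured genes at or below each log2 ratio of RXRγ over control mice (grey line, shown from -3 to 3), with the 11 measured Klhl and Kbtbd genes as red points and dashed lines at 0.4 in either direction. Klhl8, placed by its measured signals although one is under 150, lies furthest to the left, 5 points lie to the left of the lower threshold and none lies to the right of the upper one.

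The remaining members were at or under 150 on both arrays. Klhl1, Klhl4, Klhl6, Klhl10, Klhl14, Klhl17, Klhl32 and Klhl35, best known from other tissues such as brain, testis and lymphocytes, ran from 0.2 to 131.0 on 13 probe sets. The highest of these was Klhl17, at 131.0 in RXRγ mice and 101.9 in control mice on one probe set. Klhl5, Klhl11, Klhl23, Klhl26, Klhl29, Klhl36, Kbtbd3 and Kbtbd11 ran from 2.9 to 95.9 on 14 probe sets. No ratio is given for these genes, since both signals were under the level used for a fold.

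With 150 in place of 250 as the limit on the brighter array, 16 genes were counted. Of these 8 were lower, the 5 named above and Kbtbd4, Kbtbd13 and Klhl28, and Klhl13 was higher. Among all 5359 genes counted in this way 19.2% were lower and 18.3% were higher. For all 3 added lower genes the signal in RXRγ mice was under 150.

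The ligase that these adaptors serve also differed in part. Cul3, the scaffold, was lower (log2 ratio -0.59), with 4 probe sets above 250 that averaged 895.2 in RXRγ mice against 1344.5 in control mice and ran from -0.74 to -0.39. The exchange factor gene Cand2 had a log2 ratio of -0.39, Cand1 was under 150, and the probe set named for the RING subunit Rbx1 was listed at 1.4 in RXRγ mice and 1.2 in control mice. Of 6 measured genes of NEDD8 conjugation 1 was higher (16.8% of all measured genes) and 1 was lower (20.1%). The median log2 ratio was 0.04. The higher one was Uba3, the catalytic subunit of the NEDD8-activating enzyme, at 1018.6 against 479.5 in control mice over 3 probe sets. Its partner subunit Nae1 had a log2 ratio of -0.25. The lower one was Dcun1d1, which promotes the joining of NEDD8 to cullins (357.9 against 585.2), and Nedd8 itself had 1028.3 and 1013.3. Dcun1d2 had 544.7 in RXRγ mice and 485.9 in control mice.

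Of 8 measured genes of the COP9 signalosome 3 were lower (20.1% of all measured genes) and none was higher (16.8%). Their median log2 ratio was -0.38. Cops3 had 842.2 against 1275.7 in control mice, and Cops7a and Cops2 had log2 ratios of -0.51 and -0.49. Cops4 lay just inside the threshold at -0.39, and Gps1 had the one ratio above 0 (0.29). Of the BTB-kelch genes with other names, Ivns1abp was lower (1486.7 against 1978.7 in control mice) and Keap1, the adaptor for the stress factor NRF2, had 292.6 and 339.3. Nfe2l2, the gene of NRF2, had 474.6 and 424.6. Enc1, Ipp and Ccin did not reach 150.

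**Figure D4:**
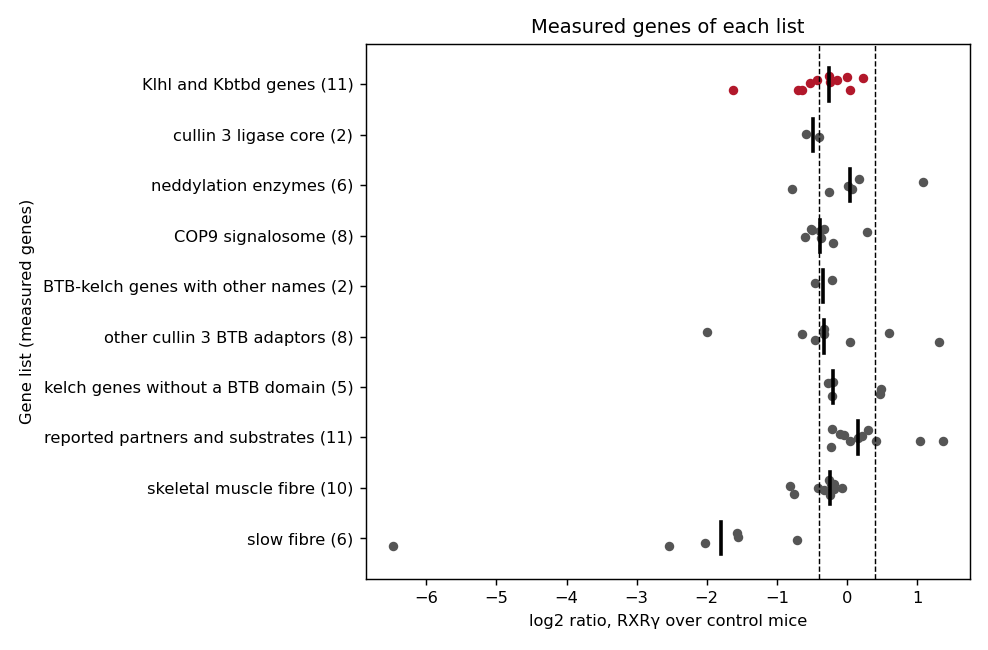
Measured genes of the family (red) and of 9 lists (grey) placed by log2 ratio of RXRγ over control mice, 1 point each, with vertical spread added so that points can be told apart and the number of measured genes in brackets. Black bars are medians (-0.26 for the family, -0.38 for the COP9 signalosome and -1.80 for slow fibre markers) and dashed lines stand at 0.4 on either side of 0.

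The calls of Klhl8, Klhl21, Klhl12 and Klhl30 kept their side of the threshold under median scaling, quantile normalization, intensity-dependent centring and a pseudocount of 32. The call of Klhl24 did not: its log2 ratio was -0.39 with intensity-dependent centring, -0.38 with the pseudocount and -0.13 at its brightest probe set.

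**Figure D5:**
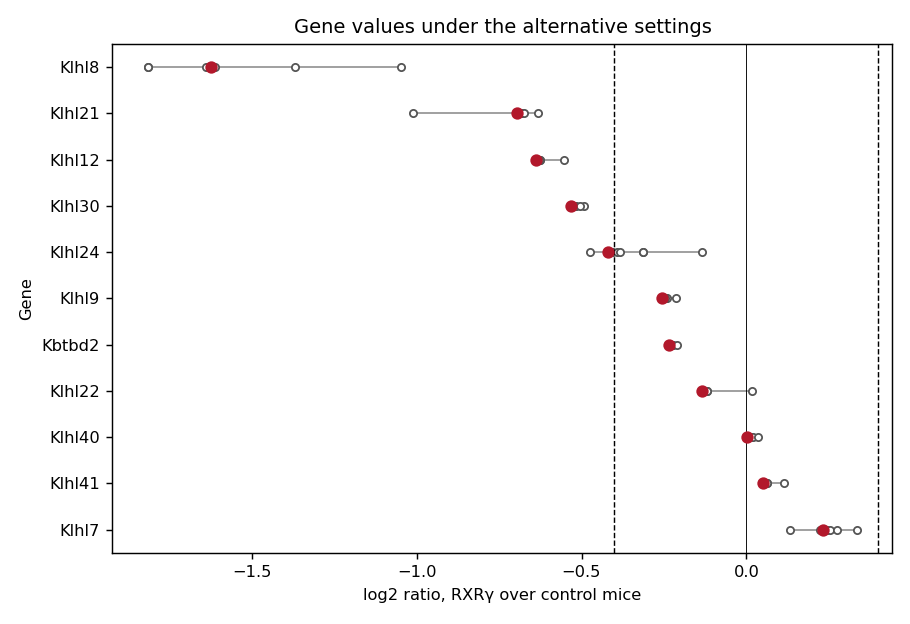
The 11 measured genes by log2 ratio of RXRγ over control mice, as reported (red) and under the alternative settings (open circles), with grey lines over the range of each gene and dashed lines at 0.4 in either direction. Of the 5 lower genes, Klhl24 is the one with open circles on the inner side of the threshold.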

How the data were processed

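Muscle RNA, pooled within each genotype, was measured on 1 Affymetrix MG430 array for control mice and 1 for RXRγ mice. The authors made the deposited intensity values with the Affymetrix Gene Chip software, from perfectly matched and mismatched oligonucleotides, and their scaling was not given in the sources used here. Names of probe sets came from the platform annotation (932 with several genes and 9211 not listed were left out).

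From these signals the log2 ratio was computed without a pseudocount. The limits of 250, 150 and 0.4 were taken from the study's methods, without its requirement that a transcript be called present. A signal under 150 was replaced by 150 for a lower bound. Every member above 150 is named, with the up to 4 genes of each list that had the largest log2 ratios, Cul3 and Keap1. Other listed genes were named after their values were seen. One gene called lower among the other cullin 3 adaptors is not reported here. With 1 array per genotype no p-values were computed. The members and lists were chosen with earlier results of these data known. The MEF2 and CAGCTG motifs and the CpG counts were added after the signals were seen. The steps were tested on simulated data.

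Alternatives changed 1 choice at a time: 3 scalings (loess span 0.3), a pseudocount of 32, a floor of 150, other signal filters, other probe sets per gene and a threshold of 1. Software was Python 3.11.15, pandas 2.3.3, numpy 2.4.6, scipy 1.17.1, matplotlib 3.10.9, and limma 3.58.1 in R 4.3.3.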

Additional observations from a re-analysis of the deposited data

How the results depend on the processing

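Higher and lower members numbered 0 and 5 as reported. A filter of 150 on the brighter array gave 1 and 8 of 16, and no filter gave 7 and 14 of 42, most of them too dim for a fold, where 28.6% of all genes were higher and 22.6% lower. Lower members numbered 1 of 5 above 500 on the brighter array (21.2% of all genes), 2 of 8 above 250 on both arrays (16.4%) and 1 of 11, Klhl8, at a threshold of 1 (4.1%). The median log2 ratio of the members stayed below 0 under each alternative, from -0.34 to -0.06. Of 112 gene values under an alternative, none moved by a factor of 1.5. This count says little, since a gene with 1 probe set above 250 keeps its value under several filters. Genes that a filter dropped, such as Klhl8 with 250 on both arrays, were not counted. Klhl22 had a log2 ratio of 0.02 without a filter, against -0.14, where its second probe set was near 1. No paired analysis was possible because each genotype has 1 array, and without replicates the precision of every value is unknown.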

Other observations

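Cullin 3 adaptors without kelch repeats went both ways. Of 22 listed genes with a probe set 8 were measured, with a median log2 ratio of -0.33. In RXRγ mice 2 were higher (16.8% of all measured genes) and 3 were lower (20.1%). Abtb2, an ankyrin repeat and BTB protein gene, read 686.5 against 276.0 in control mice, and Btbd1 had 4088.7 against 2695.7. Of the 3 lower genes 2 are given here. Spop, which encodes an adaptor of nuclear substrates, averaged 947.5 against 1408.9 over 3 probe sets, and Tnfaip1 had a log2 ratio of -0.45.

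Of 12 further kelch genes on the array 5 were measured, all without a BTB domain. Of these 2 were higher (16.8% of all measured genes), none was lower (20.1%), and the median log2 ratio was -0.20. Klhdc10 had 401.3 against 286.6 in control mice and the muskelin gene Mkln1 had 376.9 against 271.5. Klhdc1, Klhdc2 and Klhdc3 had log2 ratios of -0.20, -0.21 and -0.26.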
